A study of Mus musculus with 16 samples.

Results

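The drug and organic ion membrane transporters of the mouse liver were described here across NC-fed conventional mice that received vehicle, a lean or an obese gut microbiota. The members were all genes whose name on the array starts with Slc22a or Slco, or is Abc followed by a letter from a to g and a number, and the bile salt export pump Abcb11 was left out. This rule uses names only and no measured value. It gave 90 of the 37074 gene names on the array, carried by 184 probes. Of these 90 genes, 68 were bright enough to be tested, among 20404 genes tested in all.

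Hepatocytes take up drugs, hormones, bile acids and organic ions from blood through carriers of the Slc22 family and through the organic anion transporting polypeptides of the Slco family, which move solutes without ATP. The ATP-binding cassette (ABC) proteins burn ATP to push drugs, conjugates, phospholipids and sterols out of the cell into bile or blood, or to move lipids and peptides across the membranes of peroxisomes, mitochondria and lysosomes. Many of these genes are known to respond to nuclear receptors for xenobiotics, bile acids and sterols, such as CAR, PXR, FXR and LXR.

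The mice were male C57BL/6 recipients aged 10 weeks at collection and fed NC for 4 weeks from the age of 6 weeks. By the paper's methods, all were fasted for 6 hours before collection. They lived under an inverted light cycle, with 5 or 6 mice to a cage. None had been given antibiotics, so every recipient kept a resident microbiota. Conv + PBS mice (PBS mice, n = 6) received reduced PBS by gavage, Conv + LM mice (LM mice, n = 5) received caecal content of lean NC-fed donors, and Conv + OM(HFD) mice (OM mice, n = 5) received caecal content of donors made obese by HFD. The caecal content of several donors was pooled for each kind of transplant, so the mice of a group shared their donors. The labels describe the controls as not transplanted, while the methods describe a gavage with vehicle. The cage of each mouse and the time of day at which each liver was taken are not given in the sources used here, so a cage that holds mice of 1 group and the transplant cannot be told apart.

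Each liver was hybridized to 1 Agilent array with a single dye, on which the intensity of a spot rises with the amount of its transcript. Levels are given here as log2 intensity relative to the 75th percentile of the same array, so a level of 0 is that percentile and a difference of 1 is a doubling. Probes bind with different strength, and levels are compared between mice and not between genes. The 75th percentile lay between 153 and 220 intensity units, and between 49.7% and 58.3% of probes were well above background. The 16 arrays lay on 2 slides, each holding mice of all 3 groups. The 5 hepatocyte markers were all tested, and their summed level lay between 12.03 and 12.38. The 4 of 5 neutrophil markers that could be tested stood apart in PBS mouse 1 (summed level 4.94) and OM mouse 25 (4.85), against −0.61 to 0.64 in the other 14 mice. Both mice were kept, and differences that moved strongly without them are also given without them.

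Of the 68 members tested, 63 were well above background on all 16 arrays. The other 5 were above it on some: Slc22a13 on 15 arrays, Slc22a26 on 14, Slco1c1 on 9, and Abcc12 and Slc22a6 on 8. The tested share was 75.6% of the members and 55.0% of all gene names. The 22 members not tested were above background on at most 2 arrays, and 11 of them on none. They were Abca4, Abca12, Abca13, Abca14, Abca15 and Abca16, Abcb5, Abcc8, the carriers Slc22a2, Slc22a12, Slc22a14, Slc22a19, Slc22a20, Slc22a22, Slc22a27 and Slc22a29, and Slco1a5, Slco4c1, Slco5a1, Slco6b1, Slco6c1 and Slco6d1. Several of these are known from other organs, such as Slc22a2 and Slc22a12 from the kidney and Abca4 from the retina.

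Few transporters differed between the groups, even before adjustment for the number of genes. In OM compared with PBS mice, Abcb1a, an exporter of drugs, was lower at an unadjusted limma p under 0.05, and in LM compared with PBS mice Abcb1a and Abca9 were lower. Abca9 was higher in OM than in LM mice. None of the 68 members passed an adjusted p under 0.05 in limma (Benjamini-Hochberg over all 20404 genes), where 0% of all genes passed in each of the 3 comparisons.

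For OM vs. PBS mice, 1 of 68 members was lower at an unadjusted p under 0.05, as were 1.76% of all genes. None was higher, as were 1.49% of all genes. The median log2 fold change of the members was −0.02, from −0.48 to 0.20. For LM vs. PBS mice, 2 of 68 members were lower, as were 2.09% of all genes, and none was higher, as were 1.79% of all genes. Their median was 0.00, from −0.77 to 0.20. For OM vs. LM mice, 1 of 68 members was higher, as were 1.38% of all genes, and none was lower, as were 1.29% of all genes. Their median was −0.02, from −0.45 to 0.63. These shares of members are close to those of all genes. In no member did the mice of any pair of groups fail to overlap, where 0.23%, 0.279% and 0.436% of all genes were without overlap in the 3 comparisons. Each pair of these comparisons shares the mice of 1 group, so their values are not independent.

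The width of the intervals sets what could be seen. In 63, 62 and 60 of the 68 members, in the same order of comparisons, the whole 95% interval of the difference lay within 1 log2 unit of 0, which leaves out a doubling or a halving. For all genes the shares were 90.3%, 89.6% and 88.7%, against 92.6%, 91.2% and 88.2% of the members. The interval lay within 0.5 of 0 in 45, 42 and 45 members. Smaller changes were not detectable in most of the others with 5 or 6 mice a group.

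**Figure D1:**
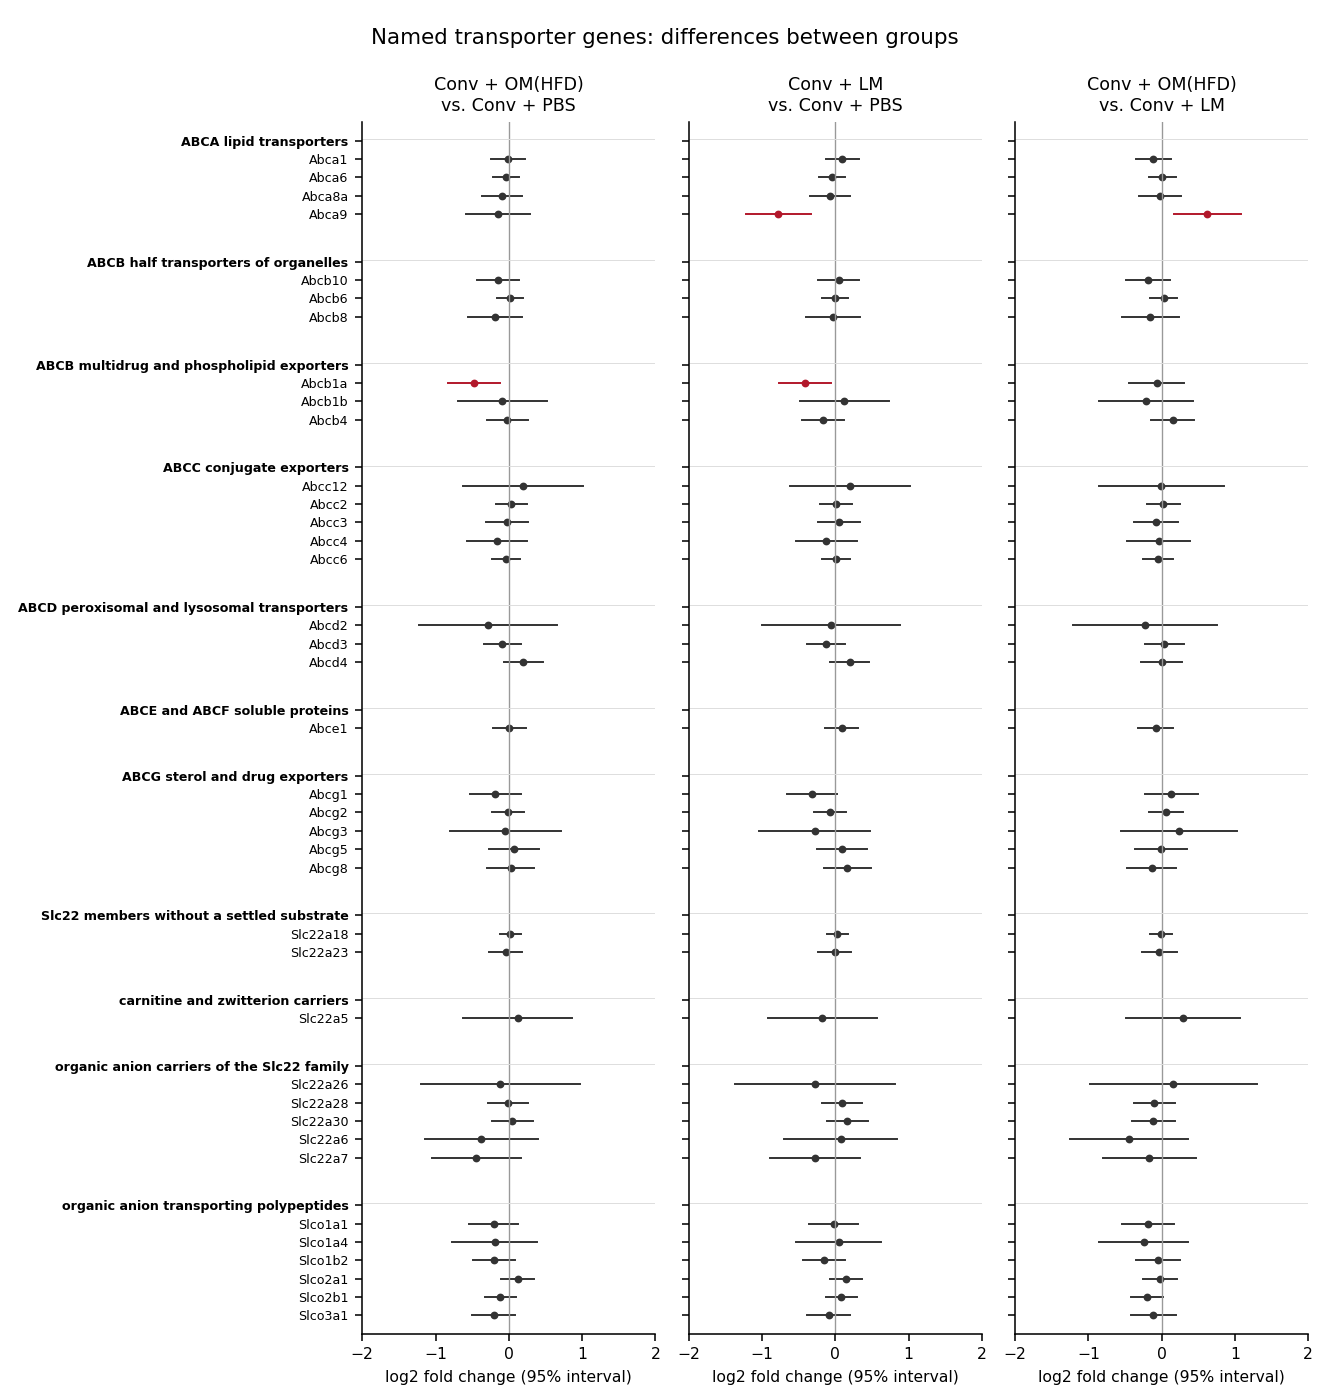
Log2 fold change (x axis, dots) of 38 of the 68 tested members in each of the 3 comparisons, with 95% confidence intervals of limma as lines and members ordered by role. Points in red have an unadjusted p under 0.05 (Abcb1a in 1 comparison, Abcb1a and Abca9 in the next, Abca9 in the last), and most intervals cover 0 and stay within 1 on either side.

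Among the uptake carriers for organic cations and carnitine, no member of the 7 tested passed the test in any comparison. Slc22a3, a cation carrier of wide tissue distribution, differed by 0.00 (95% interval −0.63 to 0.63) between OM and PBS mice. Slc22a5, the high-affinity carnitine carrier of the plasma membrane, differed by 0.12 (−0.62 to 0.86) in OM and by −0.18 (−0.92 to 0.57) in LM mice. These 2 intervals are wide because mice of the same group differed strongly, as described further on. Slc22a4, a carrier of ergothioneine, differed by −0.29 (−0.62 to 0.04) between OM and LM mice.

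The organic anion carriers of the Slc22 family had 7 tested members of 14, again with none past the test. Slc22a7, which carries nucleotides and small organic anions in hepatocytes, had levels from 4.31 to 5.22 with a median of 4.98 in PBS mice. The LM mice lay at 3.66, 4.58, 4.75, 4.95 and 5.18, and the OM mice at 3.42, 4.56, 4.62, 4.71 and 4.96. The groups overlap, and 1 mouse in each transplanted group lies well under the rest. The difference between OM and PBS mice was −0.44 (−1.05 to 0.17), and it rested on OM mouse 25, high in neutrophil markers: without that mouse it was −0.18, and without both such mice −0.12. Slc22a28 and Slc22a30, anion carriers of rodents, differed by −0.01 (−0.28 to 0.26) and 0.05 (−0.23 to 0.33). Slc22a18 and Slc22a23, whose substrates are not settled, differed by 0.02 (−0.12 to 0.17) and −0.04 (−0.27 to 0.18).

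Of the organic anion transporting polypeptides, 9 of 15 members were tested and none passed. In OM compared with PBS mice 6 of the 9 had a negative difference, with a median of −0.17. Slco1b2, the liver-specific carrier for bilirubin, bile acids and statins, had a mean level of 8.41 ± 0.16 (SD, n = 6) in PBS, 8.26 ± 0.28 (n = 5) in LM and 8.21 ± 0.22 (n = 5) in OM mice. The mice of the 3 groups overlap, and OM differed from PBS mice by −0.20 (−0.49 to 0.09). Slco1a1 and Slco1a4, carriers of bile acids, steroid conjugates and cardiac glycosides, differed by −0.21 (−0.54 to 0.13) and −0.19 (−0.78 to 0.39). The prostaglandin carrier Slco2a1 differed by 0.12 (−0.10 to 0.34) and Slco3a1, another widely expressed member, by −0.20 (−0.50 to 0.09). Slco2b1, a carrier of sulphated steroids, differed by −0.20 (−0.42 to 0.02) between OM and LM mice, with mean levels of 4.94 ± 0.14 and 5.14 ± 0.16.

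The drug exporter Abcb1a, one of the 2 mouse P-glycoproteins, was the member with the smallest p in OM compared with PBS mice. Its levels were −1.0 at the lowest, −0.34 at the median and 0.07 at the highest in PBS mice. They were −1.08, −0.94, −0.82, −0.81 and −0.49 in LM and −1.14, −1.1, −0.84, −0.78 and −0.62 in OM mice. All 5 OM and all 5 LM mice lay under the PBS median, and the groups overlapped through PBS mouse 4 at −1.0 and mouse 1 at −0.65. Abcb1a differed by −28.2% in OM against PBS mice (log2 fold change −0.48, SE 0.17, 95% interval −0.83 to −0.12, limma p = 0.0116, adjusted p = 1.0, exact permutation p = 0.0325). It differed by −24.7% in LM mice (−0.41, −0.77 to −0.05, limma p = 0.0265, adjusted p = 0.998, exact permutation p = 0.0606). The transplanted groups differed from each other by −0.07 (−0.44 to 0.30).

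Within slide 1 and slide 2, the difference of Abcb1a was −0.65 and −0.34 for OM and −0.46 and −0.30 for LM against PBS mice. It was −0.47 and −0.46 without both mice high in neutrophil markers, and −0.30 in each comparison when the mean intensities were corrected by normexp instead. For LM mice the unadjusted p rose above 0.05, to between 0.0529 and 0.0716, without PBS mouse 3, PBS mouse 5, LM mouse 16 or LM mouse 17, and it was 0.0578 with the methods' t-test. The probe lies at chr5:8748075-8748134 (mm9), and the other probe for Abcb1a was above background on no array. Abcb1a is known from capillary endothelium as well as from hepatocytes. The 5 endothelial markers, all tested, summed to 5.36 to 5.55 in PBS, 4.92 to 5.47 in LM and 4.74 to 5.51 in OM mice, and 1 of them, Clec4g, was lower in OM than in PBS mice (−0.48), as were 1.76% of all genes. Their part in the result was not tested, and in whole liver fewer cells of a type and less RNA per cell cannot be told apart.

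None of the other exporters passed the test in limma. Abcb1b, the second P-glycoprotein, differed by −0.09 (−0.70 to 0.52) between OM and PBS mice and by 0.13 (−0.48 to 0.74) between LM and PBS mice. Abcb4, which flips phosphatidylcholine into bile, had mean levels of 7.0 ± 0.16, 6.83 ± 0.21 and 6.98 ± 0.29 in PBS, LM and OM mice, and OM differed from PBS mice by −0.02 (−0.30 to 0.27). All 8 conjugate exporters of the ABCC family were tested and none passed. Abcc2, which exports bilirubin glucuronide into bile, differed by 0.04 (−0.18 to 0.25). Abcc3 and Abcc4, which export conjugates back into blood, differed by −0.02 (−0.31 to 0.27) and −0.16 (−0.58 to 0.25). Abcc6, whose loss causes ectopic calcification, differed by −0.04 (−0.23 to 0.16). Abcg2, the exporter of urate and many drugs, differed by −0.01 (−0.23 to 0.21). The exact permutation test, unlike limma, put 1 further exporter under 0.05: Abcc10 was at 0.18 (−0.01 to 0.37) in both OM and LM against PBS mice, with exact p = 0.0433 and 0.0411. Within slide 1 and slide 2 it was at 0.22 and 0.15 for OM, and at 0.40 and 0.01 for LM mice. Of the lipid transporters, Abca7 was at 0.17 (−0.05 to 0.38) between OM and LM mice with exact p = 0.0317. Both are named for these values. By this exact test 2 of 68 members were under 0.05 in each comparison, where 3.15%, 3.88% and 2.99% of the genes measured in every mouse were, in the order of comparisons used above.

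Of the lipid transporters of the ABCA family, 10 of 16 were tested, and Abca9 was the only one of them past the unadjusted threshold. Abca9 lies in a cluster of related genes with Abca5, Abca6, Abca8a and Abca8b, and its substrate is not settled. Its levels were −2.07 at the lowest, −1.55 at the median and −1.41 at the highest in PBS mice. In LM mice they were −2.87, −2.73, −2.45, −2.25 and −1.72, and in OM mice −2.13, −2.08, −1.81, −1.65 and −1.22. Of the 5 LM mice 4 lay under all mice of the other groups, and mouse 14, at −1.72, lay among them. Abca9 differed by −41.5% in LM against PBS mice (log2 fold change −0.77, SE 0.21, 95% interval −1.21 to −0.34, limma p = 0.0018, adjusted p = 0.998, exact permutation p = 0.0108). It was 54.2% higher in OM than in LM mice (0.63, 0.17 to 1.08, limma p = 0.0105, adjusted p = 0.999, exact permutation p = 0.0476). OM and PBS mice differed by −0.15 (−0.59 to 0.29).

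Within slide 1 and slide 2, the difference of Abca9 was −0.60 and −0.89 for LM vs. PBS and 0.57 and 0.55 for OM vs. LM mice. Abca9 was dim, with a mean level of −1.92 over all mice. Normexp correction, which adds an offset of 50 intensity units, gave −0.31 and 0.29, and the authors' processed values gave −0.46 and 0.41. The size thus depended on the processing, and the cause was not tested. The probe lies at chr11:109962136-109962195 (mm9), and the second probe for Abca9 was above background on no array. The 5 Kupffer cell markers, all tested, summed to 5.03 to 7.56 in PBS, 4.69 to 5.31 in LM and 4.90 to 6.39 in OM mice. The highest values were those of PBS mouse 1 and OM mouse 25, both high in neutrophil markers. The other PBS mice reached 5.57 and the other OM mice 5.58. The 5 stellate cell markers summed to 6.30 to 6.76, 6.24 to 6.73 and 6.05 to 6.55. Their part in the result was not tested. Of the neighbours, Abca5, Abca6 and Abca8a differed by −0.09 (−0.35 to 0.17), −0.05 (−0.23 to 0.13) and −0.07 (−0.34 to 0.20) between LM and PBS mice. Abca8b was at 0.18 (−0.17 to 0.53), of the other sign than Abca9, but its other probes were at 0.11 and −0.08.

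**Figure D2:**
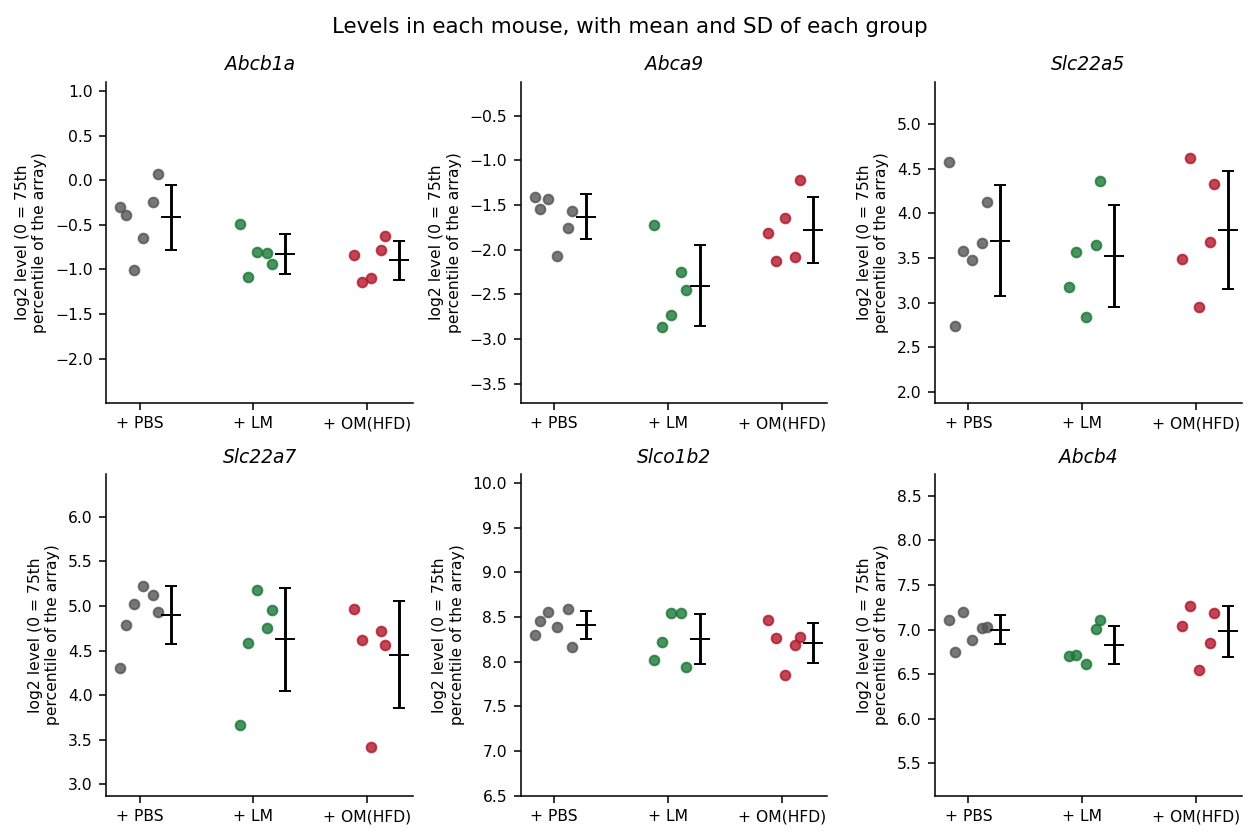
Log2 level relative to the array's 75th percentile (y axis) of 6 transporters in each mouse (points) of the 3 groups, with the group mean and SD. Panels span the same height in log2 units. Abcb1a in the transplanted mice lay under the PBS median, Abca9 was lowest in LM mice, and Slc22a5, Slc22a7, Slco1b2 and Abcb4 overlapped between the groups.

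Abca1, which loads cholesterol onto apolipoprotein A-I, differed by −0.01 (−0.24 to 0.21) between OM and PBS mice. All 6 members of the ABCG family were tested and none passed. Abcg5 and Abcg8, which pair to export cholesterol and plant sterols into bile, differed by 0.08 (−0.26 to 0.42) and 0.03 (−0.29 to 0.35). Abcg1, a sterol exporter that is also abundant in macrophages, had a mean of 0.31 ± 0.40 in PBS against −0.01 ± 0.20 in LM mice, a difference of −0.32 (−0.66 to 0.03). Its highest level, 1.07, was in PBS mouse 1, high in neutrophil markers and the highest of all mice in summed Kupffer cell markers (7.56). Without that mouse the difference was −0.16, and the part of these cells was not tested.

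Of the transporters inside the cell none passed the test in any comparison. Abcd3, a peroxisomal importer of long-chain acyl-CoAs and bile acid precursors, differed by −0.09 (−0.34 to 0.16) between OM and PBS mice. Abcd2, its relative for very long-chain acyl-CoAs, differed by −0.28 with an interval of −1.22 to 0.66, which does not leave out a halving. Abcd4, which brings cobalamin out of lysosomes, differed by 0.20 (−0.07 to 0.46). Of the 5 ABCB members that sit in organelles, all tested, 4 had a negative difference and none passed. The mitochondrial members Abcb8 and Abcb10 differed by −0.19 (−0.56 to 0.18) and −0.14 (−0.43 to 0.14), and the porphyrin transporter Abcb6 by 0.02 (−0.15 to 0.20). Abce1, which recycles ribosomes and transports nothing, differed by 0.01 (−0.22 to 0.24).

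A gene was represented by its brightest probe, and 29 members had more than 1 usable probe. The 43 other probes of these members had the same sign as the representative in 27, 33 and 26 cases in the 3 comparisons. Of these 43, 3, 1 and 3 had an unadjusted p under 0.05, in genes whose representative did not, where 3.16%, 3.85% and 2.69% of all 30664 usable probes had one. One of them, a second probe of Slc22a15, a carrier of zwitterions, was at −0.72 in OM vs. LM mice. It is named because its value stood out, and whether it detects other transcripts of the gene was not tested.

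Other genes of drug handling were read from lists of general knowledge. Of 37 further carriers and exporters 32 were tested. In OM compared with PBS mice none was higher at an unadjusted p under 0.05 and 2 were lower, the urate and phosphate carrier Slc17a4 (−0.70) and the chloride channel Cftr (−0.76), where 1.49% and 1.76% of all genes were higher and lower. In OM compared with LM mice the cation exporter Slc47a1 was lower (−0.47), as were 1.29% of all genes. All 23 regulators of transporters were tested. The PXR gene Nr1i2 was higher (0.24) and Nfe2l2, the regulator of the oxidative stress response, lower (−0.24) in OM than in PBS mice, where 1.49% and 1.76% of all genes were. In LM compared with PBS mice 1 regulator, not named here, was higher, as were 1.79% of all genes. Of 30 targets of xenobiotic receptors 27 were tested, and 1 was past the threshold, Tiparp, a target of the dioxin receptor, lower in LM than in PBS mice (−0.28), as were 2.09% of all genes. None of these genes passed an adjusted p under 0.05 in limma.

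The bile duct markers (5 of 5 tested) summed to between 2.47 and 3.71, the red blood cell markers (3 of 5) to between 7.95 and 9.54, the pancreas markers (2 of 5) to between 2.93 and 3.56 and the kidney markers (1 of 5) to between −2.16 and −1.22 over all mice. No gene of these 4 lists had an unadjusted p under 0.05 in any comparison. Of 14 clock genes 13 were tested, and 1 was past this threshold, Per2, lower in OM than in LM mice (−0.35), as were 1.29% of all genes. Of the 5 stellate cell markers 3 were lower in OM than in PBS mice, Colec11 (−0.27), Dcn (−0.26) and the retinol-storing enzyme Lrat (−0.63), where 1.76% of all genes were. Colec11 (−0.27) and Lrat (−0.39) were also lower in OM than in LM mice, where 1.29% of all genes were.

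The members varied between mice of a group about as much as other genes did. The median SD within groups, pooled over the 3 groups, was 0.23 over the 68 members and 0.24 over all 20404 genes. Among genes with a mean level over 0 it was 0.21 for 42 members and 0.18 for 10940 genes, and among those under 0 it was 0.37 for 26 members and 0.36 for 9464 genes. The groups accounted for a median of 6.41% of a member's variance and 8.82% of that of all genes, and the slides for 5.68% and 4.72%. The most even members were Slc22a18 (SD 0.08) and the soluble ABC proteins Abcf1 and Abcf3 (0.10 each), which have no membrane part. The SD was largest in Slc22a26 (0.91), Abcd2 (0.79), Abcc12 (0.68), Slc22a6 (0.64) and Abcg3 (0.63), all with mean levels under 0 and 3 of them not above background on every array.

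**Figure D3:**
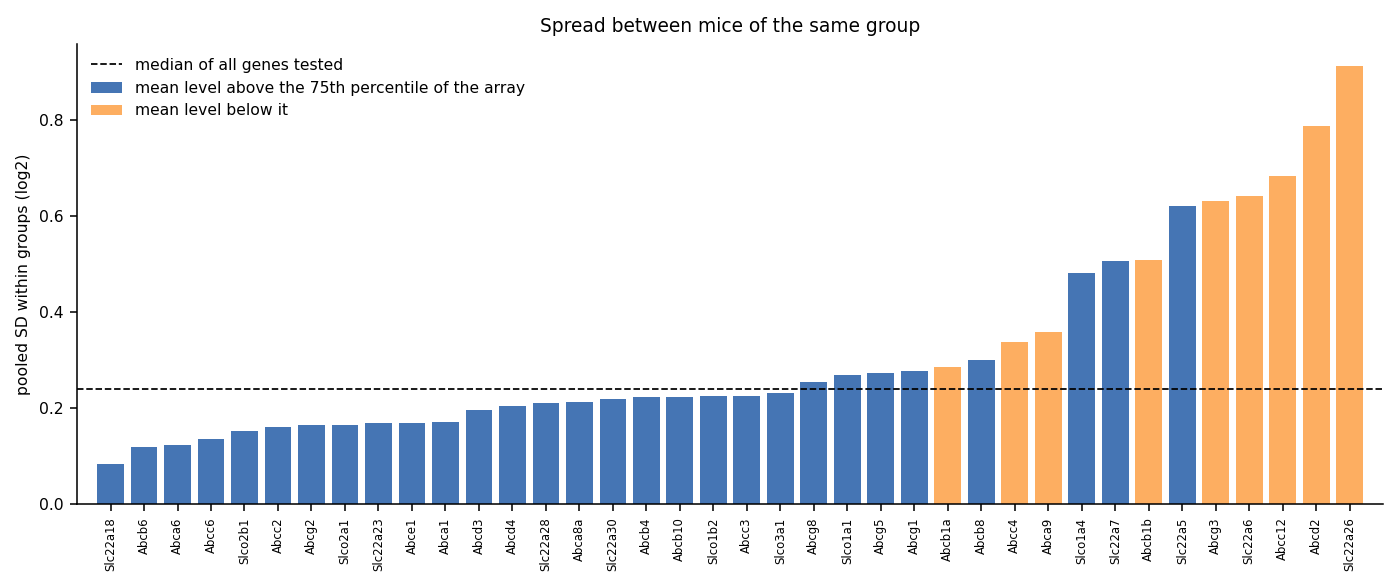
SD of log2 level between mice of a group, pooled over the 3 groups (y axis), for 38 of the 68 tested members. Bars in blue have a mean level over the array's 75th percentile and bars in orange a level under it, and the dashed line is the median of all genes. The 5 longest bars are orange, and Slc22a5 is the longest blue bar at 0.62.

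Among members with a mean level over 0, Slc22a5 varied most, with an SD of 0.62 and 3.69-fold between the lowest and the highest mouse. Its levels were 2.73 at the lowest, 3.63 at the median and 4.57 at the highest in PBS mice, 2.84, 3.17, 3.57, 3.65 and 4.36 in LM mice, and 2.95, 3.49, 3.68, 4.32 and 4.62 in OM mice. Every group held both low and high mice, over nearly the same range. The SD of Slc22a5 exceeded that of 98.2% of the genes with a level over 0. Its 2 probes varied together (Pearson r = 0.91 over the deviations of the 16 mice from their group means, a description). After Slc22a5 came Slc22a7 (SD 0.51, 3.49-fold between the extreme mice) and Slco1a4 (0.48, 3.79-fold).

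The variation of Slc22a5 was then set beside that of Arntl, a core clock gene whose RNA rises and falls over the day, a comparison chosen after the data were seen. Arntl had levels of −2.33 to 0.20 in PBS, −2.73 to 0.32 in LM and −2.28 to 0.74 in OM mice, so it differed widely between mice of every group. Its group means of −1.16 ± 0.99, −1.04 ± 1.11 and −0.87 ± 1.1 differed by less than this spread (OM vs. PBS mice 0.29). Within groups, 4 of 68 members (5.88%) followed Arntl at an adjusted p under 0.05 in limma, where 8.24% of all other genes did, so that a relation to Arntl was no more frequent among the members. The 4 were Slc22a5, Slc22a21, Abcb4 and Slco1a6, all of which were higher where Arntl was higher.

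Slc22a5 rose by 0.51 (SE 0.08) per log2 unit of Arntl (limma adjusted p = 0.00224). Over the deviations of the 16 mice from their group means, Pearson's r was 0.88 and Spearman's rho 0.89, given for these 4 members as a description since they were chosen by the fit. Pearson's r was 0.89 without the 2 mice farthest from the median of Arntl, and 0.92 and 0.79 within the slides. Slc22a21, a carnitine carrier close to Slc22a5 in sequence, rose by 0.39 (adjusted p = 0.00471, r = 0.84, rho = 0.80, r without 2 mice 0.87, within slides 0.92 and 0.82). Abcb4 rose by 0.17 (adjusted p = 0.0117, r = 0.83, rho = 0.81, without 2 mice 0.82, within slides 0.95 and 0.75). Slco1a6, a further anion carrier, rose by 0.40 (adjusted p = 0.0196, r = 0.75, rho = 0.76, without 2 mice 0.82, within slides 0.60 and 0.87). Without both mice high in neutrophil markers, 2 of the 4, Slc22a5 and Slc22a21, passed. Over all genes 654 of 20403 passed in that setting, against 1682 with all mice. Slco1a6, with 34.1% of its variance between the slides, did not pass with the slide as a block, without the filter on dim probes, or without LM mouse 17 or OM mouse 25. Abcb4 did not pass with the authors' values.

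Among genes with a symbol, those whose deviations were most like those of Slc22a5 over the 16 mice were Ak6 (r = 0.97), Acot1 (0.96), G0s2 (0.95) and Hsdl2 (0.95). The most opposed were Sc5d (−0.95) and Nudt16l1 (−0.95), and all these values are given as a description. Acot1, an acyl-CoA thioesterase, and G0s2, an inhibitor of lipolysis, are known for their rise in the fasted liver. Slc22a21 had no entry among the promoter windows used here. The windows of Slc22a5, Abcb4 and Slco1a6 in RefSeq (GRCm38.p6, 250 bases before to 50 after the start) were searched on both strands for CACGTG and CACGTT, the E-box letters bound by clock proteins, for TTATGTAA, a D-box, and for TAGGTCA, a core of the sites of ROR and REV-ERB proteins. None of these 4 motifs was in these 3 windows. They occurred in 7.15%, 4.68%, 0.938% and 2.61% of all 32851 windows and in 10.7%, 1.19%, 2.38% and 1.19% of the 84 windows of the 72 members with an entry.

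Abcg5 and Abcg8 are neighbours on chromosome 17 and are read in opposite directions from a shared stretch of DNA. Their starts lie 110 bases apart, and the whole interval is printed because both genes begin in it and their levels moved together, as given next. It is from RefSeq (GRCm38.p6), 111 bases on the plus strand at chr17:84683011-84683121, with 45.9% G and C. The capitals mark TTTATA, which is TATAAA read on the other strand, the letters of a TATA box. These letters were in 13.6% of all windows and in 17.9% of the members' windows.
Abcg5 to Abcg8 interval: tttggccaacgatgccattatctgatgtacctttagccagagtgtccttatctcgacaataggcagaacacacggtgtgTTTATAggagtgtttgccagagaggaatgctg

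Whether members vary together between mice was asked of 8 pairs chosen for their biology. Abcg5 had levels of 5.53 to 6.16 in PBS, 5.55 to 6.38 in LM and 5.73 to 6.23 in OM mice, and Abcg8 of 4.43 to 4.88, 4.19 to 5.11 and 4.42 to 4.82. Mice high in one were high in the other, within groups. Over the deviations of the 16 mice, Pearson's r was 0.82 (permutation p = 0.00072, adjusted over the 8 pairs 0.00576) and Spearman's rho 0.81 (permutation p = 0.00167, adjusted 0.0134). It was 0.75 without the 2 farthest mice and 0.67 and 0.85 within the slides. None of the other 7 pairs passed. They included Abcb1a with Abcb1b (r = −0.47, permutation p = 0.0523, adjusted 0.209), Abcb4 with Abcc2 (0.48, but 0.06 without 2 mice), Slc22a5 with Abcd2 (−0.39), Abcc3 with Abcc4 (−0.26), Slco1a1 with Slco1a4 (−0.12) and Abca1 with Abcg1 (−0.01).

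**Figure D4:**
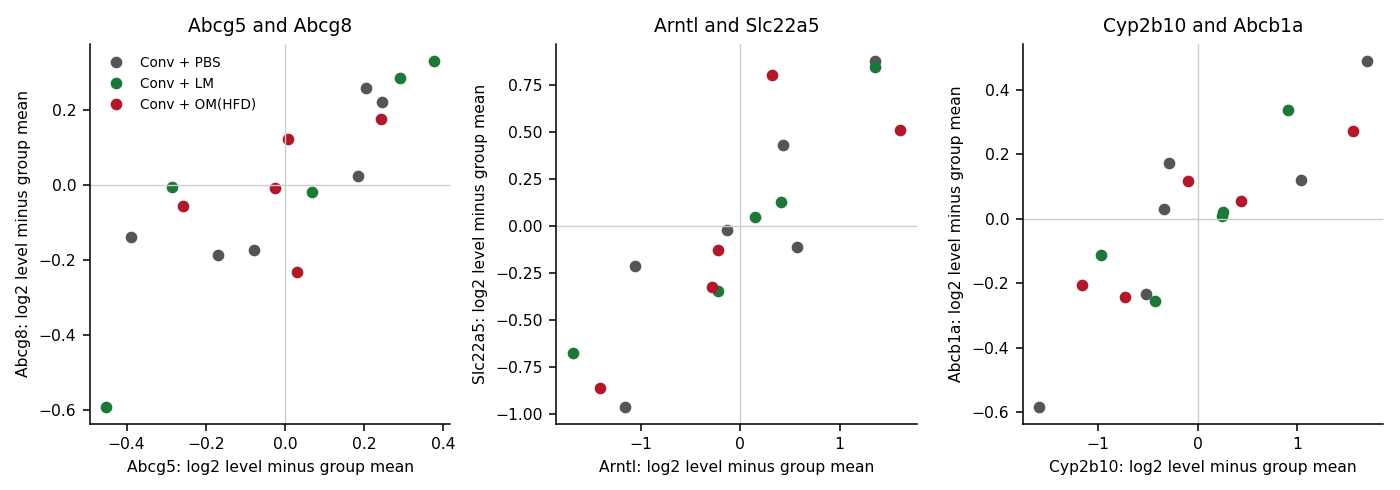
Deviation of each mouse from its group mean, in log2 units, for Abcg5 (x) and Abcg8 (y), Arntl and Slc22a5, and Cyp2b10 and Abcb1a. Each point is 1 of 16 mice, coloured by group, and in each panel mice of all 3 groups lie along a rising line (r = 0.82, 0.88 and 0.88).

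Abcb1a was also set beside Cyp2b10, a cytochrome P450 induced through CAR, again chosen after the data were seen. Cyp2b10 had group means of 0.57 ± 1.18, 0.36 ± 0.72 and 0.24 ± 1.07 in PBS, LM and OM mice, with differences of −0.33 in OM and −0.21 in LM against PBS mice, both within the spread. Within groups, Abcb1a had a slope of 0.24 (SE 0.04) per log2 unit of Cyp2b10, with Pearson's r of 0.88 and Spearman's rho of 0.85 over the deviations of the 16 mice. Without the 2 farthest mice r was 0.82, and within the slides 0.92 and 0.93. Across all genes, 0 of 68 members passed an adjusted p under 0.05 in limma, where 0.0049% of all other genes did, and the adjusted p of Abcb1a was 0.33. Cyp2b10 is the gene with the highest r to Abcb1a among all genes, so its r is a description with no test. Its relative Cyp2b9 was at 0.82, and the most opposed genes were Th (−0.93) and Actg1 (−0.91). Abcb1b ran the other way within groups, with a slope of −0.31 per log2 unit of Cyp2b10 and r = −0.62, which did not pass.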

How the data were processed

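Liver RNA of 16 mice was measured on 1-colour Agilent arrays, 1 per mouse, of the groups Conv + PBS (PBS, n = 6), Conv + LM (LM, n = 5) and Conv + OM(HFD) (OM, n = 5), grouped by their labels. The authors deposited scanner output of Agilent Feature Extraction 10.10.1.1, given in the submitters' processing notes, whose intensity values are linear, with the processed intensity corrected for background within each array. A second table deposited by the authors held log2 values, which followed the median spot intensity after a quantile type of normalization. The labels name limma without a version.

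Control spots were left out, spots of a probe were averaged, log2 was taken and each array's 75th percentile was subtracted. Probes well above background on at least 5 arrays were kept, and the probe with the highest mean stood for a gene. The groups were compared in 1 fit of limma 3.58.1 (R 4.3.3) over all genes, with Benjamini-Hochberg adjustment. Exact permutation tests were two-sided, with a smallest p of 0.00216 (5 against 6 mice) and 0.00794 (5 against 5). Relations between genes used deviations from group means, and the 8 fixed pairs 100000 two-sided permutations within groups. A simulation over 20404 genes gave 200 of them a log2 change of 1, and the fit recovered 157 (78.5%) with 5 false calls for OM vs. PBS mice and 152 (76%) with 11 false calls for OM vs. LM mice. Its noise was drawn independently for each gene, and all members differed by less than 1 between groups. These shares therefore do not give the power for the members.

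Named members were 36 of a fixed list of liver transporters, those with an unadjusted p under 0.05 and the 5 with the largest SD. Members, roles and 13 lists (other carriers, regulators, xenobiotic targets, clock genes, and markers of hepatocytes, Kupffer cells, endothelium, bile ducts, stellate cells, neutrophils, red blood cells, pancreas and kidney) were chosen with earlier results of these data known. No mice were left out. Alternatives were normexp correction (offset 50), quantile normalization, the authors' values, other filters on dim probes, the slide as a block, array weights, other choices of probe, only the groups compared, the methods' t-test and leaving out each mouse. The number of arrays limits the precision, and p-values measure the spread between mice. Gene names and mm9 positions are those of the array design, and which exon or UTR a probe lies in was not analysed here. Of the 90 symbols, 89 are current in RefSeq. Near-identical rodent genes such as Slc22a26 to Slc22a30 may share signal. Some genes of the rule and lists are not reported here, and the plots show 38 named members.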

Additional observations from a re-analysis of the deposited data

Results flagged for a closer look

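Of 123 groups of mice examined (41 named transporters in 3 groups), 11 held a mouse far from the rest by Dixon's criterion at 95%, which chance alone gives in about 1 in 20 groups. Lowest mice were OM mouse 25 for Slc22a7 (3.42, others 4.56 to 4.96), OM mouse 28 for Slc22a18 (5.99, others 6.1 to 6.14), LM mouse 14 for Abcb6 (3.42, others 3.60 to 3.64), LM mouse 17 for Abcb8 (2.31, others 2.73 to 2.87), PBS mouse 1 for the peroxisomal transporter Abcd3 (7.33, others 7.63 to 7.78) and for Abce1 (2.86, others 3.18 to 3.34), and PBS mouse 5 for Slc22a6 (−5.53, others −3.72 to −3.10). Highest mice were LM mouse 16 for Slco1a1 (4.94, others 4.51 to 4.63), PBS mouse 4 for Slco2a1 (3.99, others 3.55 to 3.68), LM mouse 15 for Abcc3 (6.14, others 5.43 to 5.61) and OM mouse 29 for Abcg2 (5.69, others 5.20 to 5.32). OM mouse 25 and PBS mouse 1 are the mice high in neutrophil markers. Slc22a6 in PBS mouse 5 is a value of a gene above background on 8 of 16 arrays.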

How the results depend on the processing

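No paired analysis was possible because no mouse number occurs in more than 1 group. The counts of transporters at an unadjusted p under 0.05 are small and moved with the settings. For OM vs. PBS mice (1) the count was 2 with array weights, with the methods' t-test and with Arntl as a covariate, 3 with the mean over a gene's probes and without both mice high in neutrophil markers, and 4 with every probe on its own, and leaving out each mouse gave 1 to 2. For LM vs. PBS mice (2) it was 4 with Arntl as a covariate and 5 without both mice, and leaving out each mouse gave 1 to 5 (5 without PBS mouse 1, PBS mouse 4 or LM mouse 14, 4 without LM mouse 13, 1 without PBS mouse 5). For OM vs. LM mice (1) it was 2 with the authors' values, the slide as a block, array weights, the mean of all probes and the methods' t-test and 4 with every probe, and leaving out each mouse gave 1 to 4 (4 without LM mouse 17, 3 without OM mouse 26). Over all genes the share called was 3.25%, 3.88% and 2.67% in these 3 comparisons, 2.72% to 4.19%, 3.37% to 4.91% and 2.31% to 3.76% leaving out each mouse, and 2.44% to 4.42%, 2.75% to 5.85% and 1.96% to 4.22% under the other settings. All genes thus shifted as well, but not always the same way as the members. For LM vs. PBS mice 792 genes were called in the main fit, 1193 with Arntl as a covariate, 966 without both mice and 872 without PBS mouse 1. Without LM mouse 14 it was 688 genes, and without PBS mouse 4 it was 777. For OM vs. LM mice 545 were called in the main fit, 717 without LM mouse 17 and 690 without OM mouse 26. For OM vs. PBS mice 663 were called in the main fit and 641 without both mice. No transporter passed an adjusted p in limma in any of these settings. The count of members following Arntl (4) was 2 without both mice, and 3 to 6 leaving out each mouse. Of 20403 genes tested beside Arntl, 1682 followed it in the main fit, 654 without both mice and 883 to 1704 leaving out each mouse. The count of the 8 pairs that passed (1) was 1 to 2 leaving out each mouse (2 without LM mouse 16). The cause of these shifts was not tested. Of 3788 other values, 28 passed the threshold newly, 5 no longer passed and 3 moved. None of the called fold changes turned, while 238 of 3558 fold changes and 13 of 84 member medians, none of them called, had the other sign. The settings with Arntl as a covariate and without both mice were added after the data were seen.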
